A study of Mus musculus with 15 samples.

Results

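The genes examined here are the fibroblast growth factor (FGF) receptors Fgfr1, Fgfr2 and Fgfr3, the FGF ligands Fgf1 and Fgf2, the platelet-derived growth factor (PDGF) ligands Pdgfa and Pdgfb, the PDGF receptors Pdgfra and Pdgfrb, and Met, the receptor for hepatocyte growth factor. They were chosen by name as a set of receptor tyrosine kinases and ligands whose balance is known to shift when epithelial cells turn mesenchymal (epithelial-mesenchymal transition, EMT). All 10 symbols were present in both deposited tables, among 13893 genes in dataset 1 and 15023 in dataset 2. All 15 samples came from NMuMG, a mouse mammary gland epithelial cell line, and gene expression was measured by RNA-Seq in CPM, the counts of a gene scaled to a library of fixed size.

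Dataset 2 held 2 NMuMG controls and 2 shPCBP1 samples, in which a lentiviral short hairpin RNA lowers PCBP1, an RNA-binding protein. The study describes its control cells as carrying a scrambled hairpin. In dataset 1 every line carried the shPCBP1 hairpin. Its 4 shPCBP1 samples were the line as it was and 3 CT clones, which had received Cas9 protein but no guide RNA directed at a gene. The knockouts were 3 clones with FAM3C KO, 3 with LIFR KO and a single FAM3C/LIFR double KO. FAM3C is a secreted cytokine-like protein and LIFR is the receptor for leukemia inhibitory factor. Each knockout line grew from a single colony after CRISPR-Cas9 excision and gave 1 RNA sample, so differences between clones enter each group's spread.

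FGF ligands bind their receptors together with heparan sulfate, and the receptors signal through docking proteins to the ERK pathway. In epithelia FGFR2 is known for its epithelial splice form (IIIb), which is exchanged for a mesenchymal form (IIIc) in EMT, often with a gain of FGFR1. PDGF ligands from epithelial cells usually act on PDGF receptors of neighbouring mesenchymal cells, and cells that pass through EMT can gain these receptors. MET drives scattering and branching of mammary epithelium. The tables give 1 value per gene, so splice forms of Fgfr2 could not be told apart.

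The reads implied by the lowest steps of each column came to 16031859 to 46901675 per library in dataset 1 and 53033517 to 56497175 in dataset 2. In dataset 2 Pcbp1 itself stood at 287 and 312 CPM in NMuMG and at 14.1 and 14.2 CPM in shPCBP1. Among the dataset 1 lines it was 32.9 to 37.1 CPM in shPCBP1 and 33.6 to 36.0 CPM in FAM3C KO. In LIFR KO clones 1, 2 and 3 it was 39.5, 22.5 and 19.9 CPM, and in the double KO 20.6 CPM. The part of these Pcbp1 levels in the members' values was not tested. In dataset 1 Fam3c ranged from 26.4 to 42.9 CPM in FAM3C KO, below its range of 47.0 to 59.4 CPM in shPCBP1. Lifr in LIFR KO clones 1, 2 and 3 was 34.9, 29.3 and 14.6 CPM against 25.8 to 40.2 CPM in shPCBP1. The excision removes a short piece of coding sequence, so a whole-gene level need not fall and does not check the LIFR KO label. In LIFR KO clones 2 and 3 and the double KO, each gene's deviation from the shPCBP1 mean followed its GC content (Spearman -0.765, -0.755 and -0.714), whereas the other dataset 1 libraries lay between -0.290 and 0.236. The tested members' differences between LIFR KO and shPCBP1, and the calls between FAM3C KO and LIFR KO, are therefore given with and without those clones. Without them LIFR KO is 1 library, and its p-values assume that it varies like the other groups, so they are no replicated test. In NMuMG cells the epithelial markers summed to 2954 to 3007 CPM and in shPCBP1 to 2776 to 2833 CPM. The largest terms were Krt8 (means 1294 and 1235 CPM), Krt18 (930 and 981) and Krt19 (485 and 430). Krt7 fell from 18.7 to 1.58 CPM, Ocln from 18.7 to 8.07 and Cdh1 from 234 to 149. Of 6 tested epithelial markers 5 were lower and 1 higher. Mesenchymal markers went from 598 to 617 CPM up to 1639 to 1668 CPM, with 9 of 9 tested markers higher. Of all genes tested 38.0% were lower and 42.1% higher (limma adjusted p under 0.07). Markers of cell types outside the epithelium were low in dataset 2 but not level. The 5 mural cell markers summed to 0.189 and 0.284 CPM in NMuMG and to 2.38 and 2.75 CPM in shPCBP1. Most of that was Mcam, at 1.81 and 1.90 CPM in shPCBP1. There Rgs5 was at 0.269 and 0.240 CPM and Des at 0.233 and 0.517 CPM, while Acta2 and Cspg4 stayed at or below 0.0555 CPM. The fibroblast list, of which only Col1a1 was in the table, went from 0.106 and 0.283 CPM to 0.645 and 0.591 CPM, and endothelial and leukocyte markers reached at most 0.407 and 1.76 CPM.

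Promoter windows are shown for some of the members with a described change or an unusual spread. The windows let base composition and motifs be set beside the values. They run from 250 bases before to 50 bases after a transcription start in RefSeq (GRCm38.p6) and are printed 5′ to 3′ on the gene's own strand. Capitals mark the E-box CANNTG, the element read by the EMT factors of the Snail, Zeb and Twist families. The windows were also searched on both strands for TTCNNNGAA, the STAT element, and for GGGCGG, the GC box. The first is Fgfr2 at chr7:130266759-130267058 (minus strand), the second is Met at chr6:17463707-17464006 (plus strand), the next are the Pdgfa starts at chr5:138994232-138994531 and chr5:138994895-138995194 (minus strand), and the last is Pdgfra at chr5:75152001-75152300 (plus strand).
Fgfr2: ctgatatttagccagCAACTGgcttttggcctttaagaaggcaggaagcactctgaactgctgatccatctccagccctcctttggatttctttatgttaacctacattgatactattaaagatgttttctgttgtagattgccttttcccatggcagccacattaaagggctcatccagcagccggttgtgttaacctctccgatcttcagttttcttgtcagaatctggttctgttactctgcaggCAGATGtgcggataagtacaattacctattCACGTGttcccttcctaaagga
Met: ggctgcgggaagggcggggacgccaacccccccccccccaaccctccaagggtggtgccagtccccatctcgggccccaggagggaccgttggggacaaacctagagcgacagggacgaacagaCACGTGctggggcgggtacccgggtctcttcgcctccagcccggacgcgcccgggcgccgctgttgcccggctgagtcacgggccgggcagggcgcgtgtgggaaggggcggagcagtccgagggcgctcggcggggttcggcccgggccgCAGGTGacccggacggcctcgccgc
Pdgfa, first window: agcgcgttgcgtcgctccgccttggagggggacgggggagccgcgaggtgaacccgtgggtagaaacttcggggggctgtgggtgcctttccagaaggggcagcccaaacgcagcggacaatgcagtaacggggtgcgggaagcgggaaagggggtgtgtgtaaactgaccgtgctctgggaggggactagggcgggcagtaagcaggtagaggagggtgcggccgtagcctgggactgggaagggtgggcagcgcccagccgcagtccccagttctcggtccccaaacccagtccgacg
Pdgfa, second window: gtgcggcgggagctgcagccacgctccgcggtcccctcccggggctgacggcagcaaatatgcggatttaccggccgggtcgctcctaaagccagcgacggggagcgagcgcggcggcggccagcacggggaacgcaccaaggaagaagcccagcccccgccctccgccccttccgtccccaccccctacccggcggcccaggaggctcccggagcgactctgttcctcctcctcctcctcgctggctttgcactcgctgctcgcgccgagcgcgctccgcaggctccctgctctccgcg
Pdgfra: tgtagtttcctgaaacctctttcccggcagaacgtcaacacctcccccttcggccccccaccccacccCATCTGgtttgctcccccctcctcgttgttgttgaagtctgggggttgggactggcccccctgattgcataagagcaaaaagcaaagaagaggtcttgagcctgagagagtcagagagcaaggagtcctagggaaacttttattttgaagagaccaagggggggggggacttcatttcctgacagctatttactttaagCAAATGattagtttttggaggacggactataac

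The Fgfr2 window had a GC content of 43.7% and held 3 E-boxes and no GC box. The Met window was among the richest in GC at 75.7%, above 96.9% of all windows, and held 2 E-boxes, of which 1 reads CAGGTG, and 3 GC boxes. Both Pdgfa windows were rich in GC, at 67.0% and 73.3%, with no E-box and 1 and 2 GC boxes. The Pdgfra window had 51.0% GC and 2 E-boxes. The STAT element was in none of the 8 windows searched, which belong to 6 members. Those of Fgf2 and Fgfr3 were searched but are not printed. No window was found for Fgfr1 or Pdgfb, and Fgf1 and Pdgfrb, on chromosome 18, are not reported here. Of all 32851 windows, 72.3% held at least 1 E-box, 20.2% held CAGGTG, 8.3% the STAT element and 35.7% the GC box, and the median GC content was 52.7%, so an E-box alone is common.

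In GENCODE M21 (GRCm38) Fgfr2 (ENSMUSG00000030849) spans chr7:130162451-133123350 on the minus strand, an annotated span of 2960900 bases that includes 68 other genes. Met (ENSMUSG00000009376) lies at chr6:17463800-17573980 (plus strand), Pdgfa (ENSMUSG00000025856) at chr5:138976014-138997370 (minus strand) and Pdgfb (ENSMUSG00000000489) at chr15:79995874-80014977 (minus strand). Fgf1 (ENSMUSG00000036585) lies at chr18:38838673-38929472 (minus strand). Exons of Pdgfa share 26.07% of their bases with 6330403L08Rik on the opposite strand, those of Fgfr3 share 13.94% with G630022F23Rik and those of Fgf2 share 13.2% with Nudt6 and Gm43439. Whether the authors' counting used strand is not given in the sources used here, so part of those 3 genes' reads cannot be assigned with certainty. Gm43439 lies on the same strand as Fgf2, so counting by strand would not separate their 255 shared bases.

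Following knockdown of PCBP1, the members moved in both directions. Fgf1 fell most, Fgf2 and Fgfr2 also fell, and Fgfr3, Met, Pdgfa and Pdgfb rose. Of the 10 members, 7 passed the filter of a mean of 0.5 CPM, and all 7 changed (limma, Benjamini-Hochberg adjusted p under 0.07, the study's own threshold), 4 higher and 3 lower. The background was 80.1% of the 11384 genes tested, 42.1% higher and 38.0% lower, so a change by itself sets no member apart in dataset 2. The groups did not overlap for those 7 members, nor for 89.0% of all genes tested, 46.3% higher and 42.6% lower.

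Fgf1, which encodes an FGF that can bind every FGF receptor, stood at 46.3 and 44.7 CPM in NMuMG and at 3.46 and 3.27 CPM in shPCBP1. Both knockdown samples lay far below both controls. The log2 fold change on the log2(CPM + 0.1) scale was -3.72 (SE 0.059, n = 2 and 2, limma adjusted p = 2.25e-12), or 0.0760 times the control level. Fgf2, the basic FGF used to culture stem-like mammary cells, was at 2.52 and 1.57 CPM in NMuMG and at 0.796 and 1.04 CPM in shPCBP1. The groups did not overlap, but the controls differed by 1.60-fold between themselves. Its log2 fold change was -1.05 (SE 0.21, limma adjusted p = 0.000779).

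The PDGF ligands rose by less. Pdgfa, which encodes the A chain that binds PDGF receptor alpha, went from 4.51 and 5.36 CPM to 6.33 and 6.91 CPM. Its log2 fold change was 0.42 (SE 0.10, limma adjusted p = 0.00288). Without shPCBP1 sample 2 its adjusted p was 0.0836 (limma), past the threshold. Pdgfb, the B chain, which binds both PDGF receptors, had 70.6 and 70.5 CPM in NMuMG and 91.4 and 90.3 CPM in shPCBP1. Its replicates lay close together, and the log2 fold change was 0.36 (SE 0.025, limma adjusted p = 1.62e-07).

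Among the receptors, Fgfr2 fell slightly, from 14.6 and 13.5 CPM to 11.2 and 11.7 CPM (log2 fold change -0.29, SE 0.061, limma adjusted p = 0.00106). Fgfr3, a receptor with epithelial and mesenchymal splice forms like Fgfr2, rose from 2.67 and 2.72 CPM to 5.18 and 4.86 CPM. Its log2 fold change was 0.87 (SE 0.10, limma adjusted p = 1.11e-05), or 1.83 times the control level. Met was the most abundant receptor and rose from 85.7 and 84.9 CPM to 97.6 and 98.3 CPM (log2 fold change 0.20, SE 0.024, limma adjusted p = 1.88e-05). This was the smallest change of the 7 tested members, 1.15 times the control level.

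Fgfr1, the receptor that mesenchymal cells usually express, was listed at the table's lowest value in both NMuMG samples and at 0.215 and 0.148 CPM in shPCBP1, which corresponds to 12 and 8 reads. Pdgfrb, the PDGF receptor of mural cells and fibroblasts, was likewise at the lowest value in NMuMG and at 0.197 and 0.166 CPM in shPCBP1 (11 and 9 reads). A value of 3 reads would be 0.0531 to 0.0566 CPM in these libraries, so a level below that in NMuMG could not be detected. Pdgfra, the receptor for the A chain, went the other way, from 0.531 and 0.547 CPM (30 and 29 reads) to 0.0539 CPM (3 reads) and the lowest value. These 3 receptors were under the filter. In a limma fit without it their adjusted p was 0.00245 for Fgfr1, 0.000917 for Pdgfrb and 0.00243 for Pdgfra, where 10167 of 15023 genes passed. For Fgfr1 and Pdgfrb both controls had the same lowest value, so the test saw no spread within NMuMG. The reads that shPCBP1 cells gave for Fgfr1 and Pdgfrb left both genes at or below 0.215 CPM. In these samples Pdgfrb was thus higher and Pdgfra lower after knockdown, on at most 30 reads each. The mural cell sum, most of it Mcam, and Col1a1, the only fibroblast marker present, were higher in the same shPCBP1 samples as Pdgfrb. Of the other mural markers, Rgs5 went from the lowest value and 0.0190 CPM to 0.269 and 0.240 CPM. Des went from 0.195 and 0.170 CPM to 0.233 and 0.517 CPM. Cspg4 was also higher without overlap, though at or below 0.0539 CPM, and Acta2 overlapped between the groups. The part of these markers in the value of Pdgfrb was not tested. In dataset 1 the unaltered shPCBP1 line had more Pdgfra, 1.25 CPM (19 reads), than any other library of that table. Fgfr1 did not approach the level of Fgfr2. In bulk RNA, fewer cells of a type and less RNA per cell cannot be told apart.

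**Figure D1:**
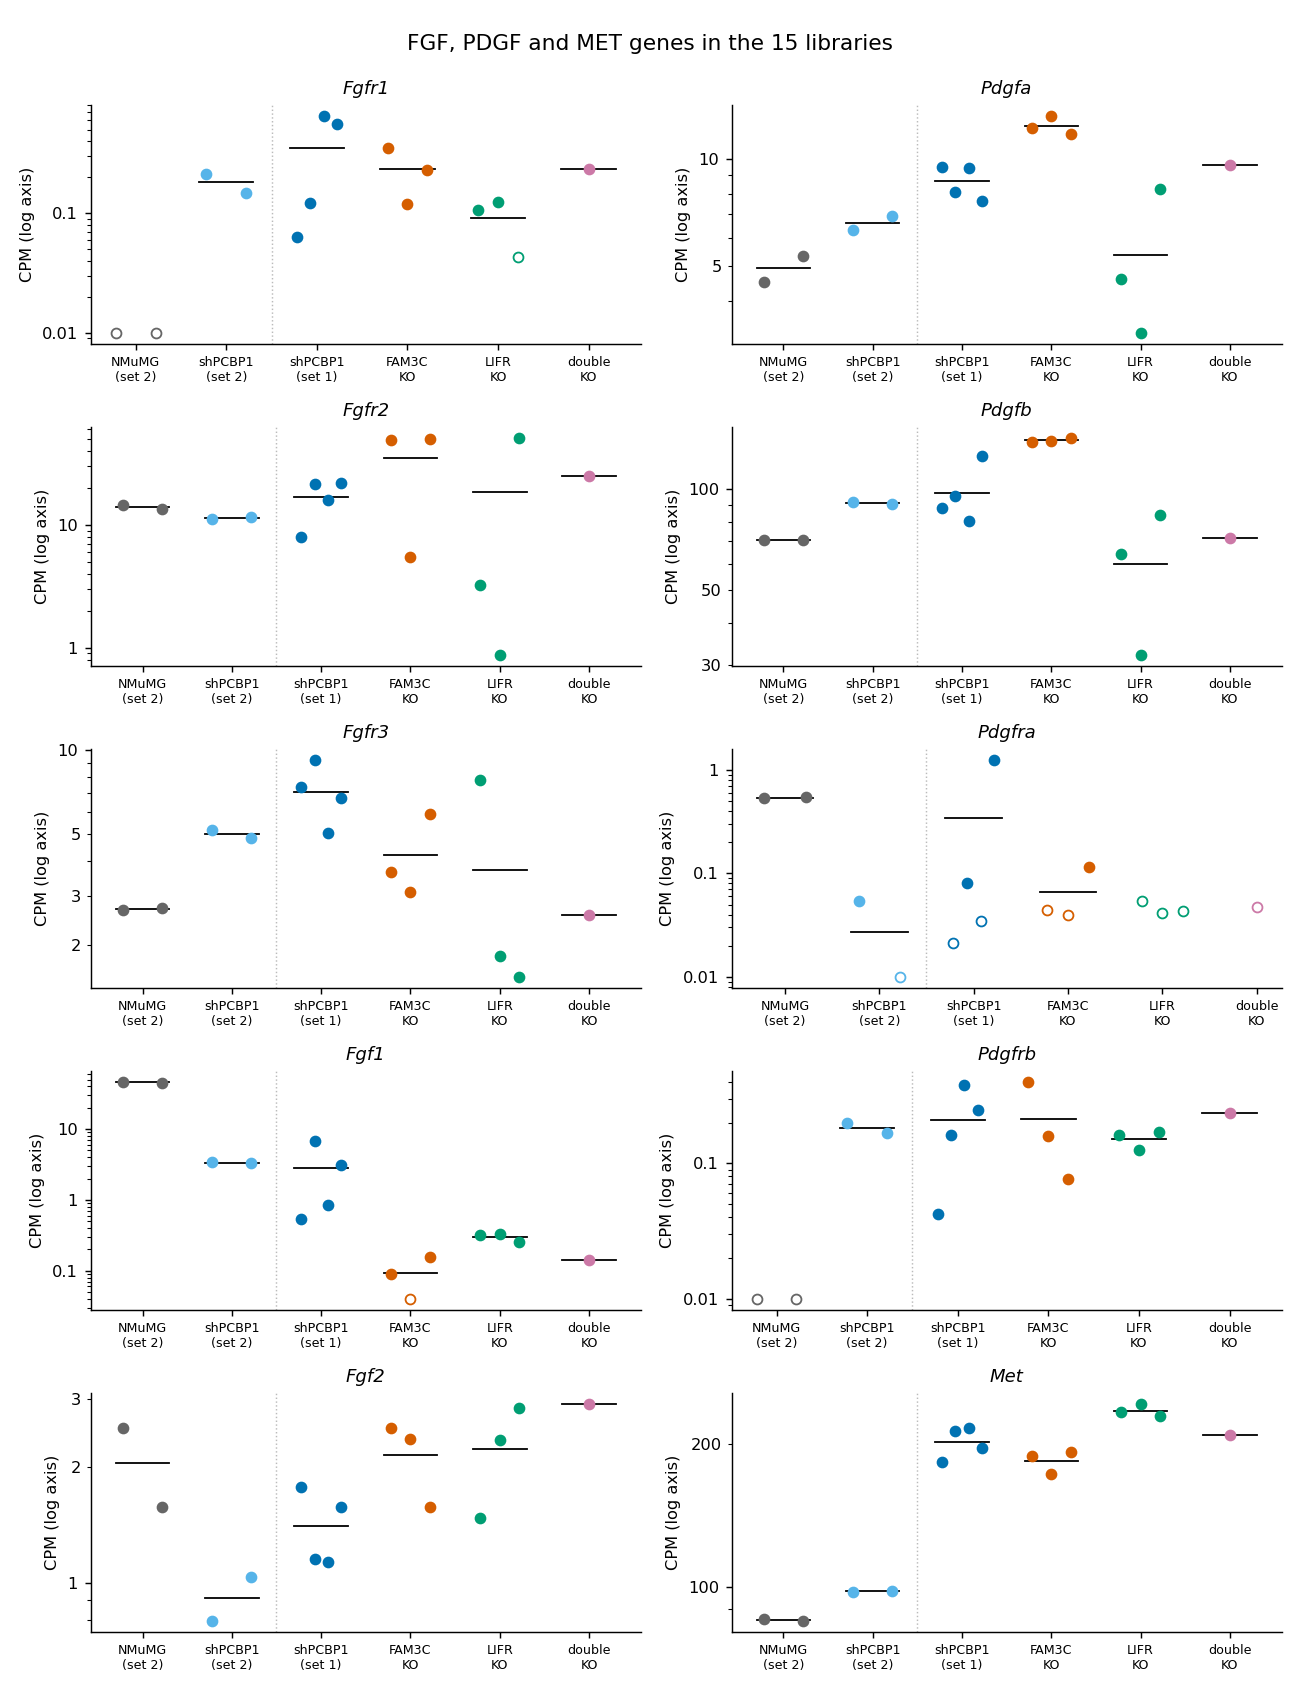
Expression of the 10 genes in each of the 15 libraries, in CPM on a log axis that differs between panels. Points are libraries, black bars are group means and open circles mark a library's lowest listed value (for set 2, dataset 2, drawn at 0.01 CPM), and set 1 is dataset 1. Fgf1 falls from 44.7 CPM or more in NMuMG to 3.46 CPM or less in shPCBP1, and the LIFR KO points for Fgfr2 spread from 0.874 to 51.2 CPM.

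The balance of both FGF receptors was also followed as the log2 ratio of Fgfr1 to Fgfr2 in each library, with 0.1 CPM added to each. It was -7.20 and -7.09 in NMuMG and -5.17 and -5.57 in shPCBP1, a difference of 1.78. The exact two-sided permutation p was 0.333, the smallest that 2 against 2 samples can give (0.557 adjusted over 3 comparisons). With a pseudocount of 1 CPM the difference was 0.515, so its size rests on how the NMuMG libraries without Fgfr1 reads are treated. In dataset 1 the ratio was -5.07 in the unaltered line and -5.63, -6.61 and -4.40 in the CT clones. It was -6.76, -4.67 and -7.24 in FAM3C KO (difference -0.80, exact permutation p = 0.371, adjusted 0.557) and -4.00, -2.12 and -8.49 in LIFR KO (difference 0.56, exact permutation p = 0.743, adjusted 0.743). The smallest p possible with 3 against 4 was 0.0286. Fgfr2 stood above Fgfr1 in every library, the double KO (-6.23) included, so no library showed the receptors exchanged.

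To compare genes with each other, CPM was divided by exon length in kb. In NMuMG the order was Pdgfb (16.9 CPM per kb), Met (11.1), Fgf1 (8.33), Pdgfa (1.58), Fgfr2 (1.36), Fgfr3 (0.377), Fgf2 (0.302) and Pdgfra (0.0538), with no overlap between neighbours. In shPCBP1 cells of dataset 2, Pdgfb (21.8) and Met (12.8) kept the top places, while Fgf1 dropped behind Pdgfa, Fgfr2 and Fgfr3 to 0.616 CPM per kb. In the shPCBP1 lines of dataset 1, Met (26.3) and Pdgfb (23.4) overlapped at the top, followed by Pdgfa (2.78) and then Fgfr2 (1.63), Fgfr3 (0.991), Fgf1 (0.515) and Fgf2 (0.208), of which each overlapped the next. Pdgfrb, Fgfr1 and Pdgfra came last, at 0.0380, 0.0354 and 0.0345 CPM per kb, and overlapped too. The cells thus carried much ligand transcript for PDGF receptors and little transcript for the receptors themselves. The tables were scaled separately, so levels were not compared between them.

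**Figure D2:**
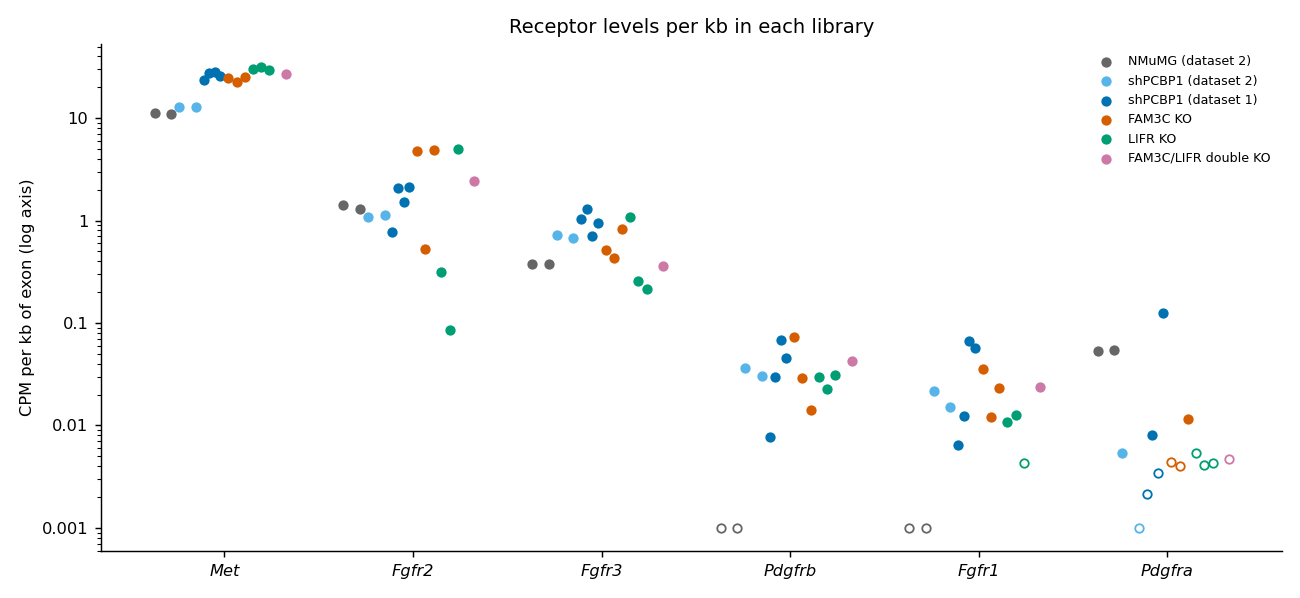
Receptor levels per kb of exon in each group, in CPM per kb on a log axis, with points for libraries and open circles for a library's lowest listed value (for dataset 2 drawn at 0.001 CPM per kb). Met lies highest and Fgfr2 next in the group means, 26.3 and 1.63 CPM per kb in the shPCBP1 lines of dataset 1, while Fgfr1 and the PDGF receptors reach at most 0.124 CPM per kb in any library.

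Genes around the same pathways were counted from lists of other ligands, cofactors, adaptors and targets. In dataset 2, 52 of 70 listed genes were in the table and 40 were tested, of which 13 rose, 19 fell and 8 did not pass, 80.0% changed against 80.1% of all genes. Among other FGF ligands, 2 were tested. Fgf13, an intracellular FGF, rose from a mean of 7.92 to 18.96 CPM, and Fgf18, a secreted FGF, fell from 1.90 to 0.747 CPM. Of 7 receptors and cofactors, 2 rose and 3 fell. The FLRT proteins, membrane partners of FGF receptors, moved apart. Flrt2 rose from 0.213 and 0.132 CPM to 17.8 CPM in both knockdown samples (log2 fold change 6.05, limma adjusted p = 4.58e-11), whereas Flrt3 fell from 20.2 to 5.87 CPM and Flrt1 from 4.53 to 1.52 CPM. Klb, the co-receptor for endocrine FGFs, fell from 1.01 to 0.0634 CPM, and Fgfbp1, which releases FGFs from the matrix, rose from 7.69 to 12.2 CPM.

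The 4 tested genes of the HGF and MET axis fell, in a comparison where 38.0% of all genes fell and 80.1% changed. Hgfac, the protease that activates hepatocyte growth factor, fell from 6.62 to 1.31 CPM, and Mst1r, the MET-related receptor RON, from 6.23 to 1.27 CPM. Spint2, an inhibitor of that activation step, fell from 94.1 to 28.4 CPM, and the MET partner Plxnb1 from 68.9 to 25.0 CPM. These fell while Met itself rose by 1.15-fold. Pdgfc, a further PDGF ligand, fell slightly, from 49.0 to 41.3 CPM.

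Adaptors behind these receptors split evenly, with 4 of 11 higher, 4 lower and 3 not past the test. Gab1, the docking protein of MET, rose from 4.57 to 12.3 CPM, Grb2 from 41.6 to 62.6 CPM and the phosphatase Ptpn11 from 158 to 194 CPM. Shc1, another adaptor, fell from 178 to 82.1 CPM, Plcg1 from 38.8 to 25.0 CPM and Frs3 from 3.19 to 1.78 CPM. Of 12 ERK feedback genes, 4 rose, 5 fell and 3 did not pass. Dusp5, an ERK phosphatase, rose from 10.4 to 28.5 CPM, Spry2 from 6.48 to 10.6 CPM and Spred2 from 21.4 to 33.5 CPM, while Spred3 fell from 19.3 to 10.8 CPM, Spred1 from 64.3 to 38.9 CPM and Dusp6 from 74.4 to 58.4 CPM. Neither list moved as a whole, with median log2 fold changes of -0.019 and -0.066 against 0.025 over all genes. Of the regulators of Fgfr2 splicing, Esrp2, which favours the epithelial form, fell from 36.5 to 25.9 CPM, while Rbfox2 rose from 85.4 to 100.3 CPM and Ptbp1 from 284 to 308 CPM.

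**Figure D3:**
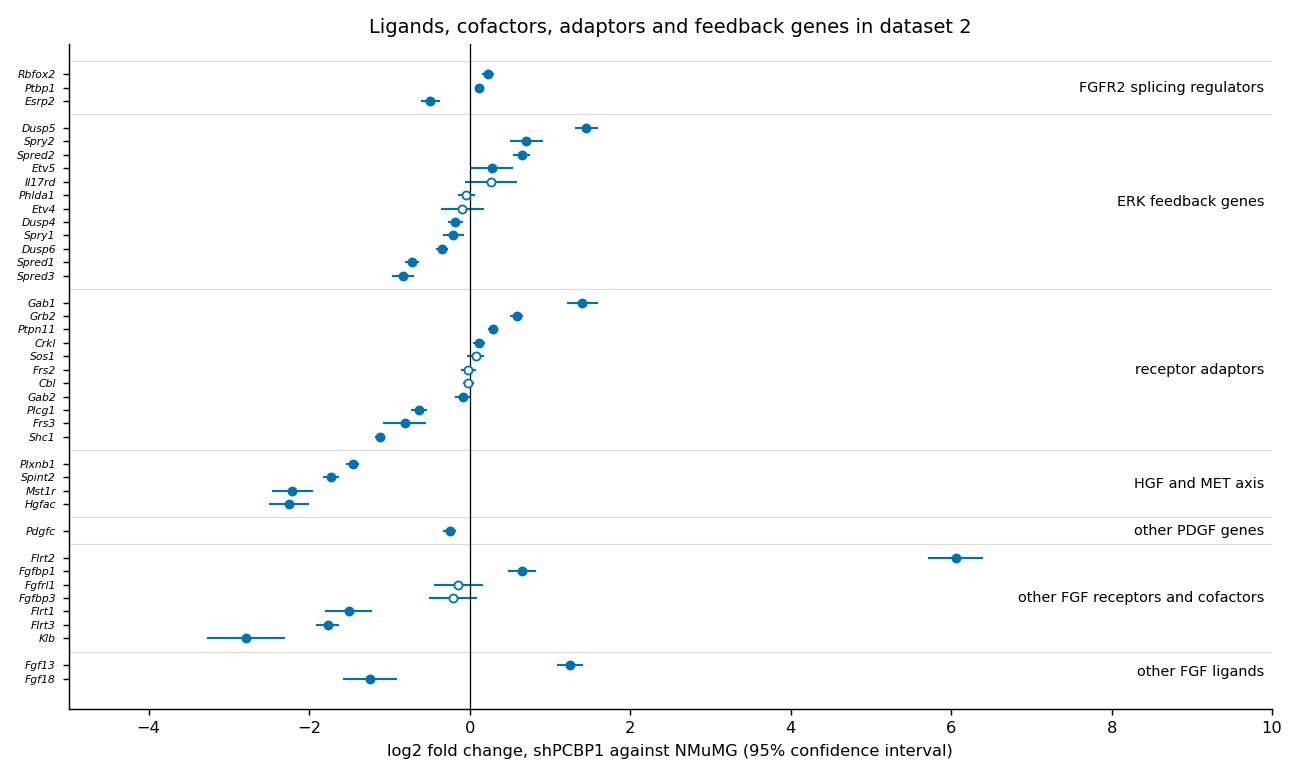
Log2 fold changes of the 40 tested pathway genes in shPCBP1 against NMuMG (dataset 2), grouped by list, with 95% intervals from limma and filled points for an adjusted p under 0.07. The adaptor and ERK feedback lists lie on both sides of zero, with 4 of 11 and 4 of 12 genes called higher, and Flrt2 lies farthest out at 6.05.

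Knockout of FAM3C in shPCBP1 cells changed none of the 7 tested members past the threshold (limma, 12621 genes tested). Over all genes 39 passed, 0.309%. An unadjusted p under 0.05 was reached by 1286 genes, 10.2%, and among the members by Fgf1 alone. The groups did not overlap for 3 of the 7 members, against 22.7% of all genes (10.1% higher and 12.5% lower). Fgf1 was lower in each FAM3C KO clone, and Pdgfa and Pdgfb were higher in each clone than in any shPCBP1 line. Fgf1 passed the filter of 0.5 CPM only through the shPCBP1 lines (mean 2.81 CPM, against 0.0941 in FAM3C KO and 0.304 in LIFR KO). Its lower direction is therefore not independent of the filter and adds no support to the count.

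Fgf1 was 3.12 CPM in the unaltered line and 0.533, 6.75 and 0.859 CPM in the CT clones, a spread of 12.7-fold. In the FAM3C KO clones it was 0.0886 CPM, the lowest value of the library and 0.154 CPM, which is at most 3 reads. The log2 difference was -3.34 (SE 0.71, limma adjusted p = 0.110), on a scale that understates changes near zero. With shPCBP1 and FAM3C KO fitted alone it passed (limma adjusted p = 0.0434).

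Pdgfa was 7.61 CPM in the unaltered line, 9.53, 8.08 and 9.48 CPM in the CT clones and 12.2, 13.2 and 11.8 CPM in FAM3C KO. The means were 8.67 ± 0.977 (SD, n = 4) and 12.4 ± 0.758 CPM (SD, n = 3), a log2 difference of 0.52 (SE 0.26, limma adjusted p = 0.542). Pdgfb was 125.7 CPM in the unaltered line, 87.7, 95.4 and 80.5 CPM in the CT clones and 138, 139 and 142 CPM in FAM3C KO. The FAM3C KO clones lay within 1.03-fold of each other and above every shPCBP1 line, of which the unaltered line came nearest. The log2 difference of Pdgfb was 0.54 (SE 0.27, limma adjusted p = 0.549). Without LIFR KO clones 2 and 3 in the shared fit, the adjusted p was 0.0360 for Pdgfa, 0.0529 for Pdgfb and 0.0429 for Fgf1 (limma), and 1060 genes passed in all. The call for these 3 genes therefore depended on which libraries set the spread, and the log2 differences did not change.

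The other members did not separate FAM3C KO from shPCBP1. Met was 188, 172 and 192 CPM in FAM3C KO against 196 CPM in the unaltered line and 183, 212 and 216 CPM in the CT clones (log2 difference -0.13, 95% interval -0.33 to 0.070). Fgfr3 was 3.66, 3.10 and 5.88 CPM against 6.75 CPM in the unaltered line and 7.39, 9.21 and 5.03 CPM in the CT clones (log2 difference -0.76, interval -1.83 to 0.32). Fgf2 was 2.53, 2.37 and 1.57 CPM against 1.57 CPM in the unaltered line and 1.78, 1.15 and 1.14 CPM in the CT clones (log2 difference 0.58, interval -0.057 to 1.21). The intervals leave changes of these sizes possible.

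Knockout of LIFR also gave no call among the 7 members (limma), where 816 genes, 6.47%, passed. An unadjusted p under 0.05 was reached by 4503 genes, 35.7%, and by 5 of the 7 members (Fgf1, Pdgfa, Pdgfb, Fgfr3 and Met). The median of all genes was shifted by -0.16 in this comparison. Epithelial markers summed to 1228 to 2111 CPM in LIFR KO against 2480 to 3186 CPM in shPCBP1, and mesenchymal markers to 1630 to 2223 against 2136 to 2392 CPM. The part of these differences in the members' values was not tested. Without LIFR KO clone 1, which leaves clones 2 and 3, the pair whose values ran with GC content, 6 of 7 members passed, Fgfr2 being the exception, as did 7234 genes in all. The groups did not overlap for 2 of 7 members, against 17.2% of all genes (3.95% higher and 13.2% lower). Fgf1 was lower and Met higher in each LIFR KO clone. Here too Fgf1 had passed the filter only through the shPCBP1 lines, so its lower direction is not independent of the filter.

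Fgf1 was 0.322, 0.333 and 0.257 CPM in LIFR KO, below the lowest shPCBP1 line at 0.533 CPM (log2 difference -2.25, SE 0.71, limma adjusted p = 0.0824, or -2.08 relative to the median of all genes). In LIFR KO clone 1 alone, without the GC-shifted clones, the difference was -2.18 (limma adjusted p = 0.497). Met was 233, 242 and 229 CPM, all above the highest shPCBP1 line at 216 CPM (log2 difference 0.22, SE 0.090, limma adjusted p = 0.119). It was 0.21 in clone 1 alone, and the part of the GC shift in it was not tested. Rescaling by median ratios took it to 0.38 and past the threshold (limma adjusted p = 0.0669).

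The PDGF ligands were lower in LIFR KO clones 1 and 2 than in shPCBP1. Pdgfa was 4.61, 3.24 and 8.25 CPM (log2 difference -0.78, SE 0.26, limma adjusted p = 0.0875) and Pdgfb 64.4, 32.2 and 83.8 CPM (log2 difference -0.78, SE 0.27, limma adjusted p = 0.0944). For both genes clone 3 lay inside the shPCBP1 range, and without it both passed (limma adjusted p = 0.0135 for Pdgfa and 0.0444 for Pdgfb). Relative to the median of all genes the difference was -0.62 for either gene. With clone 1 as the sole LIFR KO sample it was -0.89 for Pdgfa (limma adjusted p = 0.0483) and -0.57 for Pdgfb (limma adjusted p = 0.249). The spread then comes from the other groups alone, so neither p says how LIFR KO clones vary. Fgf2 in LIFR KO was 1.47, 2.35 and 2.85 CPM (log2 difference 0.60, SE 0.29, limma adjusted p = 0.156) and 0.082 with clone 1 alone. Clone 1 is the only LIFR KO library without the GC shift, and its Fgf2 lay inside the shPCBP1 range.

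Fgfr3 differed between the LIFR KO clones. It was 7.78 CPM in clone 1, inside the shPCBP1 range, and 1.83 and 1.54 CPM in clones 2 and 3, below every shPCBP1 line. The log2 difference was -1.27 (SE 0.48, limma adjusted p = 0.106) with all clones, -1.98 without clone 1 (limma adjusted p = 0.000479) and 0.16 with clone 1 alone. The GC content of the gene was 57.3%. After a correction for GC content the difference was -0.75 (limma adjusted p = 0.349). The part of the GC shift in the values of clones 2 and 3 was not tested.

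Fgfr2 varied widely between knockout clones. It was 22.1 CPM in the unaltered line and 8.02, 21.5 and 15.8 CPM in the CT clones. In FAM3C KO clones 1 and 3 it was 49.2 and 50.0 CPM, and in clone 2 it was 5.48 CPM. In LIFR KO it was 3.22, 0.874 and 51.2 CPM. In both knockouts some clones thus lay above every shPCBP1 line and others below. The log2 differences were 0.60 for FAM3C KO (interval -2.04 to 3.24) and -1.52 for LIFR KO (interval -4.16 to 1.12), so neither direction was resolved. With clone 1 as the sole LIFR KO sample the latter was -2.25 (limma adjusted p = 0.450), and with the GC correction -1.29 (limma adjusted p = 0.631). The SD of log2(CPM + 0.1) over the 11 libraries of dataset 1 was 1.82, above that of 99.0% of tested genes, whose median was 0.305. Within groups the SD was 1.82 in FAM3C KO and 2.93 in LIFR KO but 0.675 in the shPCBP1 lines, where Fgf1 (1.58) varied more. Without LIFR KO clone 3, Fgfr2 was higher in FAM3C KO than in LIFR KO by 3.74 (limma adjusted p = 0.0325), against 2.13 with it (limma adjusted p = 0.271). The GC shift was -0.755 in clone 3 and -0.765 in clone 2, and its part in the Fgfr2 levels was not tested.

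The spread of the other members over the 11 libraries was 1.73 for Fgf1, 0.856 for Fgfr3, 0.634 for Pdgfb, 0.599 for Pdgfa and 0.469 for Fgf2, above that of 98.8%, 94.5%, 90.0%, 88.7% and 78.9% of tested genes. Met was the steadiest at 0.156, above 14.7% of tested genes, with 242 CPM at most and 172 CPM at least.

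FAM3C KO and LIFR KO differed from each other in 3 of the 7 tested members, Pdgfa, Pdgfb and Met (limma), against 8.28% of all genes tested (6.83% higher and 1.45% lower). Both PDGF ligands were higher in FAM3C KO and Met was lower. Pdgfa differed by 1.30 on the log2 scale (SE 0.28, 95% interval 0.69 to 1.91, limma adjusted p = 0.0387), or 2.46-fold, and by 1.15 relative to the median of all genes. Its means were 12.4 ± 0.758 and 5.37 ± 2.59 CPM (SD, n = 3 each). Pdgfb differed by 1.32 (SE 0.29, interval 0.67 to 1.97, limma adjusted p = 0.0411), or 2.50-fold, with means of 139.8 ± 2.04 and 60.1 ± 26.1 CPM (SD, n = 3 each). Met differed by -0.35 (SE 0.097, interval -0.56 to -0.14, limma adjusted p = 0.0623), with means of 184 ± 10.3 and 235 ± 7.02 CPM (SD, n = 3 each).

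For all 3 genes every FAM3C KO clone lay on 1 side of every LIFR KO clone, as did Fgf1, 4 of 7 members against 22.8% of all genes (16.1% higher and 6.73% lower). Fgf1 was under the 0.5 CPM filter in both knockouts (means 0.0941 and 0.304 CPM) and had passed it through the shPCBP1 lines. With LIFR KO clone 1 as the sole LIFR KO sample, Pdgfa differed by 1.41 and Pdgfb by 1.12 (limma adjusted p = 0.00511 and 0.0187), and Met by -0.34 (limma adjusted p = 0.111). Those p-values take the spread of LIFR KO from the other groups, although the LIFR KO clones themselves ranged from 3.24 to 8.25 CPM for Pdgfa. After the GC correction the differences were 0.82, 0.73 and -0.32, and none passed (limma adjusted p = 0.202, 0.229 and 0.1001). With FAM3C KO and LIFR KO fitted without the shPCBP1 lines none passed either (limma adjusted p = 0.199 for both ligands and 0.223 for Met). Leaving out LIFR KO clone 2 also ended all 3 calls (limma adjusted p = 0.103 for Pdgfa, 0.0771 for Pdgfb and 0.207 for Met). So did leaving out any one FAM3C KO clone, with limma adjusted p up to 0.146 for Pdgfa and Pdgfb and 0.177 for Met. Leaving out any one shPCBP1 line ended the call of Met (limma adjusted p = 0.0801 to 0.101).

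**Figure D4:**
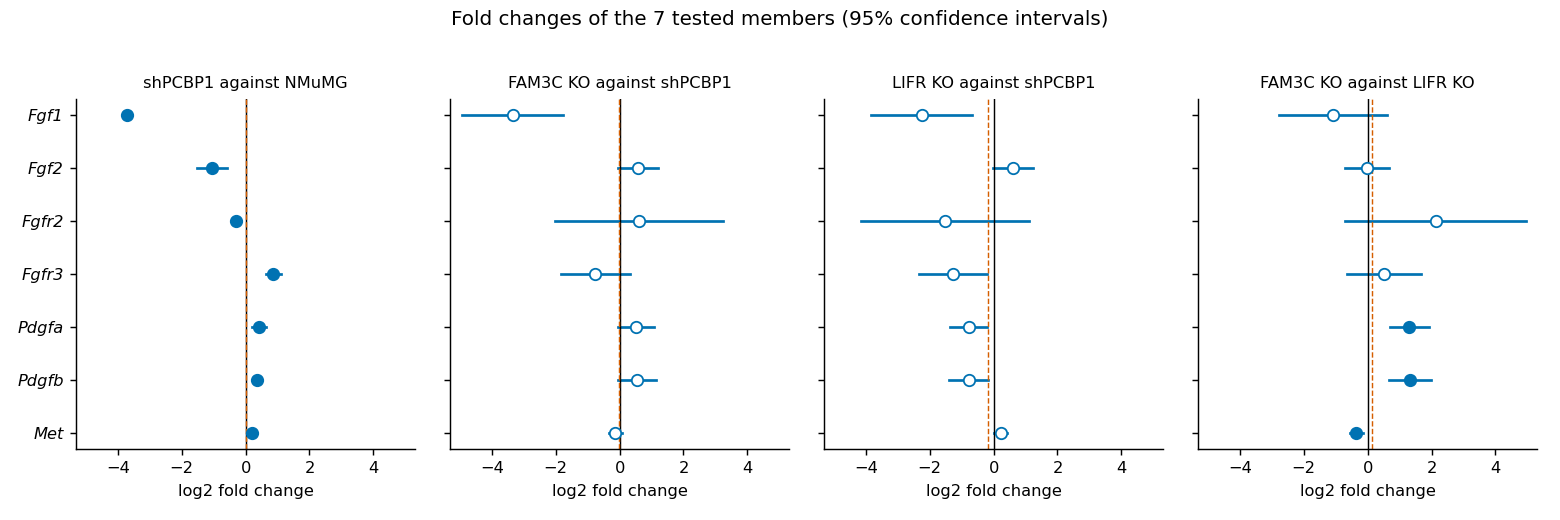
Log2 fold changes of the 7 tested members in the comparisons, with 95% intervals from limma. Filled points passed an adjusted p under 0.07 and the dashed orange line is the median of all tested genes. Every point is filled in shPCBP1 against NMuMG, from -3.72 for Fgf1 to 0.87 for Fgfr3, whereas in FAM3C KO against LIFR KO Pdgfa, Pdgfb and Met are filled.

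The PDGF ligand genes were also set beside the genes around them on the chromosome. By the deposited start positions, 77 tested genes lay within 2 Mb of Pdgfb. Their median log2 difference in LIFR KO against shPCBP1 was -0.68, close to that of Pdgfb itself (-0.78), and 42 of the 77 were called, against 6.47% of all genes. In LIFR KO clones 1, 2 and 3 Pdgfb deviated from the shPCBP1 mean by -0.57, -1.57 and -0.19, and its neighbours by a median of -0.45, -1.11 and -0.46. The median of all genes was -0.014, -0.25 and -0.21 in those clones. The neighbours' median thus lay below the shPCBP1 mean in each LIFR KO clone, as Pdgfb did, and in clones 2 and 3 so did the median of all genes. In FAM3C KO the 3 clones stood 0.53, 0.53 and 0.57 above the shPCBP1 mean for Pdgfb, while the neighbours' medians were 0.053, -0.040 and 0.015.

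Around Pdgfa the picture differed. Its 80 tested neighbours had a median of -0.48 in LIFR KO, with 6 called. In LIFR KO clone 1 Pdgfa deviated by -0.89 and its neighbours by 0.048. In clone 2 the values were -1.38 and -0.69, and in clone 3 -0.065 and -0.76. The median of all genes was -0.25 in clone 2 and -0.21 in clone 3. Pdgfa was thus below its neighbours in clones 1 and 2 and above them in clone 3. The exons of Pdgfb and Pdgfa have a GC content of 59.7% and 57.1%, those of Met 46.5%, and the part of GC content in the neighbours' values was not tested.

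**Figure D5:**
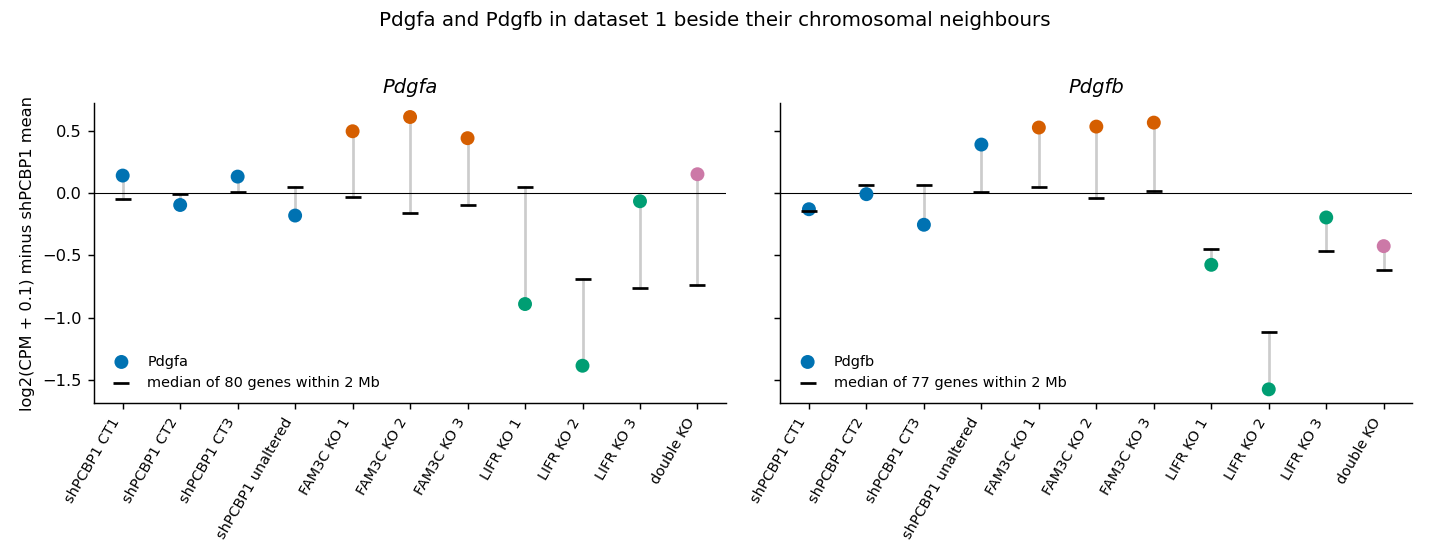
Deviation of Pdgfb and Pdgfa, and of the median of tested genes within 2 Mb of each, from the shPCBP1 mean of dataset 1, as log2 differences per library. In LIFR KO clones 1 and 2 the neighbours of Pdgfb lie below zero with the gene (-0.45 and -1.11), whereas those of Pdgfa lie at 0.048 in clone 1, where Pdgfa itself is at -0.89.

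The pathway lists held few calls in dataset 1, where 44 of 70 listed genes were tested. None passed in FAM3C KO against shPCBP1. In LIFR KO Shc1 fell by 0.54 on the log2 scale (limma adjusted p = 0.0595) and Rbfox2 by 0.38 (limma adjusted p = 0.0504), 4.55% against 6.47% of all genes. Neither call held with clone 1 as the sole LIFR KO sample (log2 differences -0.30 and -0.33, limma adjusted p = 0.544 and 0.110) or after the GC correction (-0.13 and -0.18, limma adjusted p = 0.559 and 0.261). Without LIFR KO clone 2 both also missed the threshold (limma adjusted p = 0.254 and 0.190), as did Shc1 without clone 3 (limma adjusted p = 0.130). FAM3C KO exceeded LIFR KO in Hgfac (3.37 against 1.05 CPM) and Rbfox2 (165.5 against 117 CPM), and lay below it in Il17rd, an inhibitor of FGF signalling also known as Sef (1.26 against 3.28 CPM), 6.82% against 8.28% of all genes. With LIFR KO clone 1 as the sole LIFR KO sample the log2 differences were 2.70, 0.46 and -1.70 (limma adjusted p = 0.0195, 0.0195 and 0.0423). After the GC correction they were 1.36, 0.34 and -1.45 and none passed (limma adjusted p = 0.267, 0.0780 and 0.0760). None passed without LIFR KO clone 2 either (limma adjusted p = 0.257, 0.0835 and 0.171). Flrt2, the cofactor gene that rose after knockdown, was 0.215 and 0.125 CPM in LIFR KO clones 1 and 2 and between 22.3 and 104 CPM in every other library of dataset 1. The same 2 clones held the lowest Fgfr2 levels. This observation on Flrt2 was chosen after its values were seen.

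Of the 3 low receptors, Fgfr1 was 0.561 CPM in the unaltered line and 0.0640, 0.121 and 0.653 CPM in the CT clones, or 2 to 18 reads. It was 0.354, 0.120 and 0.231 CPM in FAM3C KO and 0.107, 0.125 and the lowest value in LIFR KO. Pdgfrb lay between 0.0426 and 0.399 CPM in all 11 libraries, and the groups overlapped. Pdgfra was 1.25 CPM in the unaltered line (19 reads), 0.0808 CPM in CT clone 2 (1 read) and 0.115 CPM in FAM3C KO clone 3 (2 reads), and at the lowest value in each of the other 8 libraries. The unaltered line was thus apart from every clone made from it, edited or not. Differences between groups in these 3 genes were not detectable at this depth.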

How the data were processed

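The study describes RNA-Seq libraries made by rRNA depletion with a directional kit and sequenced as paired ends. It calls its comparison of control with shPCBP1 cells a preexisting dataset. Whether the libraries of dataset 2 were made in the same way is not stated there. The authors trimmed the reads, aligned them with Bowtie2 to the mouse genome GRCm38 (mm10) and annotated them in Partek Flow, and they compared groups with the DESeq2 applet. Per the submitters' processing notes the tools were Bowtie2, DESeq and Partek, and the builds GRCm38 and mm10. The deposited values are CPM per gene, 1 table for each dataset, with each library scaled to its total reads. A gene without reads is listed at a small lowest value, 0.0001 CPM in dataset 2 and 0.0213 to 0.0624 CPM, or 1 read's worth, in dataset 1. The annotation and the counter are not given in the sources used here. Gene start positions equalled those of GENCODE M21 for 14269 of 14795 matched genes in dataset 2 but for 302 of 13870 in dataset 1. The gene coordinates and exon lengths printed here were therefore taken from GENCODE M21. The neighbours within 2 Mb, however, were found by the deposited start positions of dataset 1. The columns without a sample (2 numeric columns in dataset 1 and 5 in dataset 2: positions in both, and the authors' group means and fold change in dataset 2) were not used.

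Groups came from the sample titles. Where the mean over the fitted samples reached 0.5 CPM, a gene was tested on log2(CPM + 0.1) with limma 3.58.1 (mean-variance trend) in R 4.3.3, with Benjamini-Hochberg adjustment over all tested genes and a threshold of 0.07, the q value of the study's methods. Dataset 2 was fitted alone. In dataset 1 shPCBP1, FAM3C KO and LIFR KO shared 1 fit, and the double KO, a single sample, stayed out. The ratio of Fgfr1 to Fgfr2 was tested by exact permutation over samples. A share of 0.822 to 0.835 of low values in dataset 1, and of 0.896 to 0.904 in dataset 2, were whole multiples of 1 read within 0.02 reads, too few for a count test, so read numbers are estimates.

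The 10 members, the pathway and marker lists and the alternatives were chosen with earlier results of these data known. Genes named from the lists passed the threshold with groups that did not overlap, at most 3 per list and direction and at 1 CPM or more in a group, and the 3 genes most correlated with each member were taken over dataset 1. Plxnb1, Flrt2 in dataset 1 and genes named for context fall outside that rule. Of the listed genes, those absent from the tables are not analysed here.

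Nothing states that the replicates of dataset 2 came from separate cultures, so p-values measure the spread between these samples. The mean squared difference between them over counting noise was 2.32 for NMuMG and 1.80 for shPCBP1, against 7.02 to 136 for pairs in dataset 1. On simulated data with 195 to 198 changed genes, the test found 181 in dataset 2 (11233 genes), 154 for FAM3C KO (12567 genes) and 161 for LIFR KO (12589 genes) against shPCBP1. The planted changes were 2- or 4-fold. Of the 2-fold changes 85 of 97, 67 of 100 and 68 of 99 were found, and 6, 14 and 11 unchanged genes were called. The simulated noise was independent, with 1 SD per gene in all groups and no GC shift. It therefore cannot say how the test behaves where clones share that shift. Alternatives were median-ratio and quantile scaling, a pseudocount of 1 CPM, no filter or 1 CPM, subtraction of the lowest value, a threshold of 0.05, no trend, the replicate number as a block, only the groups compared, LIFR KO clones 2 and 3 left out, a loess correction for GC content (span 0.3) and each sample left out in turn. For the pathway genes called in dataset 1, the last alternatives on LIFR KO clones and GC content were chosen after seeing the data.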

Additional observations from a re-analysis of the deposited data

Results flagged for a closer look

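Pdgfa, Pdgfb and Met differed between the knockouts in the fit of all 3 dataset 1 groups. The log2 fold change against shPCBP1 in FAM3C KO minus that in LIFR KO was 1.3 for Pdgfa and 1.32 for Pdgfb (limma adjusted p = 0.0387 and 0.0411), and it was -0.351 for Met (limma adjusted p = 0.0623). Both contrasts share the shPCBP1 lines, which drop out of this difference. The calls were lost with the GC correction (limma adjusted p = 0.202, 0.229 and 0.1001), with both groups fitted alone (0.199 for both ligands and 0.223 for Met) and with the replicate block (0.0989 for both ligands and 0.147 for Met). They were also lost without any one FAM3C KO clone or without LIFR KO clone 2 (limma adjusted p = 0.103, 0.0771 and 0.207).

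In the shPCBP1 lines of dataset 1, 1 sample was far from the others for Pdgfra. The unaltered line, at 1.25 CPM, stood apart from the CT clones by a gap of 0.834 of the group's range on the log2 scale. For normally distributed values chance flags about 1 in 20 groups of this kind, and 10 genes were examined. The CT clones held 0, 1 and 0 reads of Pdgfra, so their values lay at or near each library's lowest value. That rate need not hold here.

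The FAM3C/LIFR double KO, which entered no fit, lay above every shPCBP1 line for 3 genes. It had 25.0 CPM of Fgfr2 (highest shPCBP1 line 22.1 CPM), 2.92 CPM of Fgf2 (highest 1.78 CPM) and 9.6 CPM of Pdgfa (highest 9.53 CPM). For Pdgfa the margin was narrow. It is 1 library with a GC shift, and its differences were not tested. The share of all genes outside the shPCBP1 range in this library was not computed, so lying outside it sets no member apart.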

How the results depend on the processing

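In shPCBP1 against NMuMG every alternative kept all 7 tested members past the threshold, except that leaving out 1 sample gave 6 to 7 (Pdgfa, limma adjusted p = 0.0836 without shPCBP1 sample 2), and without a filter 10 of 10 passed. In FAM3C KO against shPCBP1 the count of members, 0, rose to 3 with both groups fitted alone, to 3 without LIFR KO clones 2 and 3, and to 1 with the GC correction (Fgf1, limma adjusted p = 0.0628). Leaving out 1 sample gave 0 to 1. In LIFR KO against shPCBP1 the count of 0 became 1 with median-ratio scaling (Met) and 1 without LIFR KO clones 2 and 3 (Pdgfa, with LIFR KO as 1 library). Leaving out 1 sample gave 0 to 6, with 6 without LIFR KO clone 1 and 2 without clone 3. In FAM3C KO against LIFR KO the count of 3 became 0 with the replicate block, 0 with both groups fitted alone and 0 with the GC correction, and leaving out 1 sample gave 0 to 4. The count was 0 without any 1 FAM3C KO clone or LIFR KO clone 2. The cause of these changes was not tested.

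The number of all genes called moved more. It went from 39 to 1048 with both groups alone, 1060 without LIFR KO clones 2 and 3, 271 with the GC correction, 21 with a filter of 1 CPM and 15 with the replicate block for FAM3C KO against shPCBP1. For LIFR KO against shPCBP1 it went from 816 to 481 with median-ratio scaling, 359 at 0.05, 35 with both groups alone, 281 without clones 2 and 3, 25 with the GC correction and 10 with the replicate block. For FAM3C KO against LIFR KO it went from 1045 to 587 at 0.05, 0 with both groups alone, 8 with the GC correction and 0 with the replicate block. Without 1 sample the ranges were 3 to 359, 5 to 7234 and 1 to 6673, the highest counts of the last pair being those without LIFR KO clone 1.

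Directions turned in few cases. Without LIFR KO clones 2 and 3 the log2 difference of Fgfr3 was 0.16 for LIFR KO against shPCBP1 and -0.92 for FAM3C KO against LIFR KO, and that of Fgf2 for FAM3C KO against LIFR KO was 0.49, against -0.023. The last was also 0.042 with the GC correction and ranged from -0.28 to 0.18 (without FAM3C KO clone 3), with 0.17 (without LIFR KO clone 3) and 0.040 (without LIFR KO clone 2) with 1 sample left out. The Fgfr1 to Fgfr2 log2 ratio ranged from -1.58 to -0.29 for FAM3C KO, from -0.82 (without LIFR KO clone 2) to 2.37 for LIFR KO and from 1.58 to 1.98 for shPCBP1 against NMuMG when 1 sample was left out.

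Replicate numbers did not pair the samples. Deviations of samples with the same number correlated between -0.181 and 0.154 in dataset 1 and at 0.0512 in dataset 2, so the fit with the block lost calls without saying that an effect is weaker. Depth limits Fgfr1, Pdgfra and Pdgfrb, where a few reads make each value.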

Other observations

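Over the 11 libraries of dataset 1 the genes whose log2(CPM + 0.1) followed each member most closely were listed by Pearson correlation, as a description without a test. All libraries share the hairpin line, and 3 share the GC shift. Each list is the top of 12599 genes with a mean of 0.5 CPM or more over the 11 libraries, the members set aside. High values thus arise readily. Fgfr2 was closest to Aldh3a2 (0.96), Rin2 (0.95) and Dlx3 (0.94). Pdgfa was closest to Pde4a (0.98), 1700003E16Rik (0.96) and Adssl1 (0.96), and Pdgfb to Cpt2 (0.97), Nfkbia (0.97) and Plxnd1 (0.97). Met was closest to Ermp1 (0.93), Slmap (0.93) and Rfk (0.92). Fgf1 was closest to Dlg3 (0.96), Gprc5c (0.95) and Gm609 (0.90), Fgf2 to Cox16 (0.94), Agbl3 (0.93) and Amn1 (0.92), and Fgfr3 to Apbb1 (0.96), Ciz1 (0.96) and Oxa1l (0.96).

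In the double KO, Fgf1 was 0.141 CPM, below every shPCBP1 line. In the single knockout clones it ranged from the lowest listed value to 0.333 CPM, likewise below every shPCBP1 line. Met was 208 CPM and Pdgfb 71.4 CPM, the latter below every shPCBP1 line and within the LIFR KO range of 32.2 to 83.8 CPM. Fgfr3 was 2.57 CPM, below every shPCBP1 line. The share of all genes below every shPCBP1 line in the double KO was not computed, so these positions set no member apart.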
